A study of Mus musculus with 69 samples.

Results

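The Hippo pathway keeps the transcriptional coactivators YAP and TAZ out of the nucleus through a cascade of kinases. The levels of 10 of its core genes were followed in mouse prostate organoids: the upstream kinases Stk3 and Stk4, their scaffold Sav1, the kinase adaptors Mob1a and Mob1b, the downstream kinases Lats1 and Lats2, and the upstream regulators Nf2, Wwc1 and Amot. They were picked by gene name as textbook components of the cascade, with earlier results of these data known. All 10 were present once in each of the 3 deposited count tables, which list 16893, 18799 and 18966 gene names, and all 10 passed the filter on low counts in each.

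The organoids were sequenced as bulk polyA RNA, in 69 libraries that form 23 groups of n = 3. The first table compares TKOM organoids in Matrigel, a basement membrane gel, with TKOM organoids in suspension at day 30. The second table holds PRAD organoids at day 8 with DMSO, ARi, YAPi, NOTCHi, ARi_NOTCHi, ARi_YAPi, YAPi_NOTCHi or COMBO, PRAD organoids with COMBO at day 42, and NEPC-1, NEPC-2 and NEPC-3 organoids, for which no treatment or day is given. The third table covers the genotype labels WT, PtP and TKO, again at day 8, with DMSO, YAPi_NOTCHi or COMBO. Which genes the names WT, PtP, TKO, TKOM, PRAD and NEPC stand for, and which compounds lie behind ARi, YAPi, NOTCHi and COMBO, is not spelled out in the labels. No day is given for the Matrigel group. The series title places the work on extracellular matrix, YAP/TEAD and lineage plasticity in prostate cancer.

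In this cascade STK3 and STK4, bound to SAV1, phosphorylate LATS1 and LATS2 and their MOB1 partners, and active LATS kinases phosphorylate YAP and TAZ, which are then held in the cytoplasm or degraded. NF2 (merlin) and WWC1 (KIBRA) act upstream at the membrane, where merlin brings LATS to its activating kinases, and angiomotin, the product of Amot, binds YAP and LATS at junctions and actin. YAP and TAZ act on DNA through TEAD factors, and Lats2 is itself a known YAP/TEAD target gene. The measurements below are of mRNA, and kinase activity and phosphorylation were not measured.

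The genes lie apart in the genome (mm10, GENCODE M21): Stk3 at chr15:34875496-35178921 on the minus strand, Stk4 at chr2:164070322-164155524 on the plus strand, Sav1 at chr12:69965012-69987002 on the minus strand, Mob1a at chr6:83326016-83343776 and Mob1b at chr5:88720855-88764220 on the plus strand, Lats1 at chr10:7681214-7716460 on the plus strand, Lats2 at chr14:57689662-57758388, Nf2 at chr11:4765845-4849536, Wwc1 at chr11:35838400-35980527 and Amot at chrX:145446425-145505181 on the minus strand. Paralogs could be told apart, since no 50-base stretch of Lats1, Stk3 or Mob1a exons occurs in Lats2, Stk4 or Mob1b. Exons of Lats2 share 2955 bases with Gm49361 on the same strand, so 41.2% of the 50-base stretches of Lats2 cannot be assigned to it alone. Gm49361 reached at most 0.460 CPM (read counts scaled to a common library total) in any PRAD or NEPC library and was not analysed in the other tables. Sav1 shares 1336 exon bases with Atl1 on the opposite strand, whose mean level was between 0.710 and 6.69 CPM over the groups. Whether the counting used strand is not given in the sources used here, so reads over those bases cannot be told apart between Sav1 and Atl1.

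Promoter windows of 250 bases before the RefSeq start (GRCm38.p6) were found for 9 of the 10 genes, as 11 windows. They were searched on both strands for the TEAD core GGAATG, with reverse complement CATTCC, and for the core of the Notch factor RBPJ, TGGGAA, with reverse complement TTCCCA. The TEAD core was in the windows of 2 of the 9 genes, Mob1a and Sav1. It was in windows of 14.4% of all 27025 genes, and in 12.6% of all 32851 windows of this length. The RBPJ core was in windows of 3 of the 9 genes, Sav1, Nf2 and Amot, beside 24.1% of all genes and 21.6% of all windows. Neither was in a Lats2 window. In PRAD organoids at day 8, Sav1 was lower than with DMSO in every treated arm, with ARi, NOTCHi and ARi_NOTCHi as well. Mob1a was lower with ARi_YAPi, YAPi_NOTCHi and COMBO, overlapped DMSO with YAPi or NOTCHi alone, and was higher with ARi_NOTCHi. The windows of Mob1a (chr6:83325789-83326038, plus strand) and Sav1 (chr12:69987003-69987252, minus strand) are shown, since both hold the TEAD core. Each is written 5′ to 3′ on the gene's strand, and capitals mark the TEAD core, read on the opposite strand as GGAATG:
Mob1a: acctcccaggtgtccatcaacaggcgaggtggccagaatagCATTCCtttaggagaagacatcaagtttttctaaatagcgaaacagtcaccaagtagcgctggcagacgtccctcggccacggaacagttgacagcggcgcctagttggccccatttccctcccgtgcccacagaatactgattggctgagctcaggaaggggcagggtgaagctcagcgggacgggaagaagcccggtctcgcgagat
Sav1: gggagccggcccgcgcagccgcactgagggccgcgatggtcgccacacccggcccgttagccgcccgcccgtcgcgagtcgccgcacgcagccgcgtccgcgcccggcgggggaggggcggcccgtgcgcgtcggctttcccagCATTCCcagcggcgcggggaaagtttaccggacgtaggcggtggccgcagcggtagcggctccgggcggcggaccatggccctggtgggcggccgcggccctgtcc
The match in Mob1a lies 209 bases before the start and the match in Sav1 106 bases before it. In Sav1 the RBPJ core lies at 113 and 104 bases before the start, and the second of these overlaps the TEAD core. A match describes the letters only.

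Library totals ran from 18627666 to 92271248 counts. Libraries of a group varied little, with a common biological coefficient of variation between 2.37% and 3.85% in the 3 tables. Small differences therefore passed the test, and the share of all tested genes that passed is given beside each first count. PRAD NOTCHi replicate 2 stood apart, with a chi-square per gene of 24.7 and 23.3 against replicates 1 and 3 of its group. Between those 2 replicates it was 2.57, and in other groups it was at most 12. Without that library, the call of Sav1 in the test of YAPi with NOTCHi below was lost (adjusted p = 0.0823), as it was under other alternatives given there. Replicates are not described as separate cultures, so a p-value here covers the spread between libraries alone, and that spread may be technical. All 7 epithelial markers (Epcam, Cdh1, Krt8, Krt18, Krt5, Krt14 and Trp63) were in each table, and their summed level in PRAD organoids was 11700 to 12300 CPM with DMSO, 6320 to 6470 CPM with COMBO at day 8 and 3000 to 3260 CPM at day 42. The 4 neuroendocrine markers used (Chga, Insm1, Syp and Foxa2) summed to 0.115 to 0.657 CPM with DMSO, 20.4 to 23.1 CPM with YAPi, 723 to 773 CPM with YAPi_NOTCHi, 1100 to 1140 CPM with COMBO at day 8 and 2930 to 3070 CPM at day 42. Of 5 immune markers 1, Csf1r, was read, in the PRAD and NEPC table alone, and reached at most 0.145 CPM. Fibroblast markers, mostly Dcn, were 82.1 to 86.8 CPM in PRAD with DMSO and 1010 to 1040 CPM with ARi_NOTCHi, with Col1a1 and Lum not analysed here. Between the same groups mean Col3a1 went from 0.0256 to 0.852 CPM, while Pdgfra did not rise (0.0658 and 0.0540 CPM). Endothelial markers, mostly Vwf, were 0.267 to 0.538 CPM in PRAD with DMSO and 108 to 119 CPM at day 42. The rise was in Vwf: Cdh5 and Kdr, the others read, had means of 0 CPM with DMSO and 0.0119 and 0.0227 CPM at day 42. The part of these marker shifts in the results below was not tested, and in bulk RNA fewer cells of a type and less RNA per cell cannot be told apart.

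Per kilobase of exon, the adaptor Mob1a was the most abundant of the 10 genes in PRAD organoids with DMSO, and Lats2 and Amot were the least. The levels were 65.3 ± 1.77 CPM per kilobase for Mob1a (mean ± SD, n = 3), 25.9 ± 0.263 for Nf2, 17.1 ± 1.24 for Sav1, 15.4 ± 0.914 for Wwc1 and 13.7 ± 0.119 for Lats1. Lower in the order, on the same scale, Stk4 was at 12.5 ± 0.649, Mob1b at 12.3 ± 0.437, Stk3 at 6.01 ± 0.388, Amot at 1.73 ± 0.0916 and Lats2 at 1.66 ± 0.108. At day 42 of COMBO, Amot was at 8.07 ± 0.276 CPM per kilobase and Lats2 at 0.240 ± 0.0267. In WT organoids with DMSO, Mob1a was at 91.6 ± 1.52 CPM per kilobase, Lats2 at 2.88 ± 0.224 and Amot at 0.971 ± 0.0307. With DMSO, Mob1a and the Lats2 and Amot pair thus stood at opposite ends in PRAD and in WT organoids. At day 42 of COMBO, Mob1a was at 18.4 ± 0.952 CPM per kilobase. That was below Nf2 at 27.6 ± 0.453 and Wwc1 at 21.3 ± 0.618.

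The members differed widely in how much they varied. Over the 12 PRAD and NEPC group means, the highest level exceeded the lowest 40.7-fold for Lats2, 7.58-fold for Amot and 5.84-fold for Mob1a. For the other 7 genes this range was between 1.40-fold, for Nf2, and 2.22-fold, for Wwc1. The paralogs Lats1 (1.51-fold) and Mob1b (1.80-fold) were among these steadier genes. Over all 30 comparisons made, Lats2 passed the test as lower in 20 and as higher in 5, Mob1a as lower in 24 and higher in 4, and Sav1 as lower in 20 and higher in 1. Amot passed as higher in 17 and lower in 11. These counts include comparisons that share control libraries and differences between effects.

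**Figure D1:**
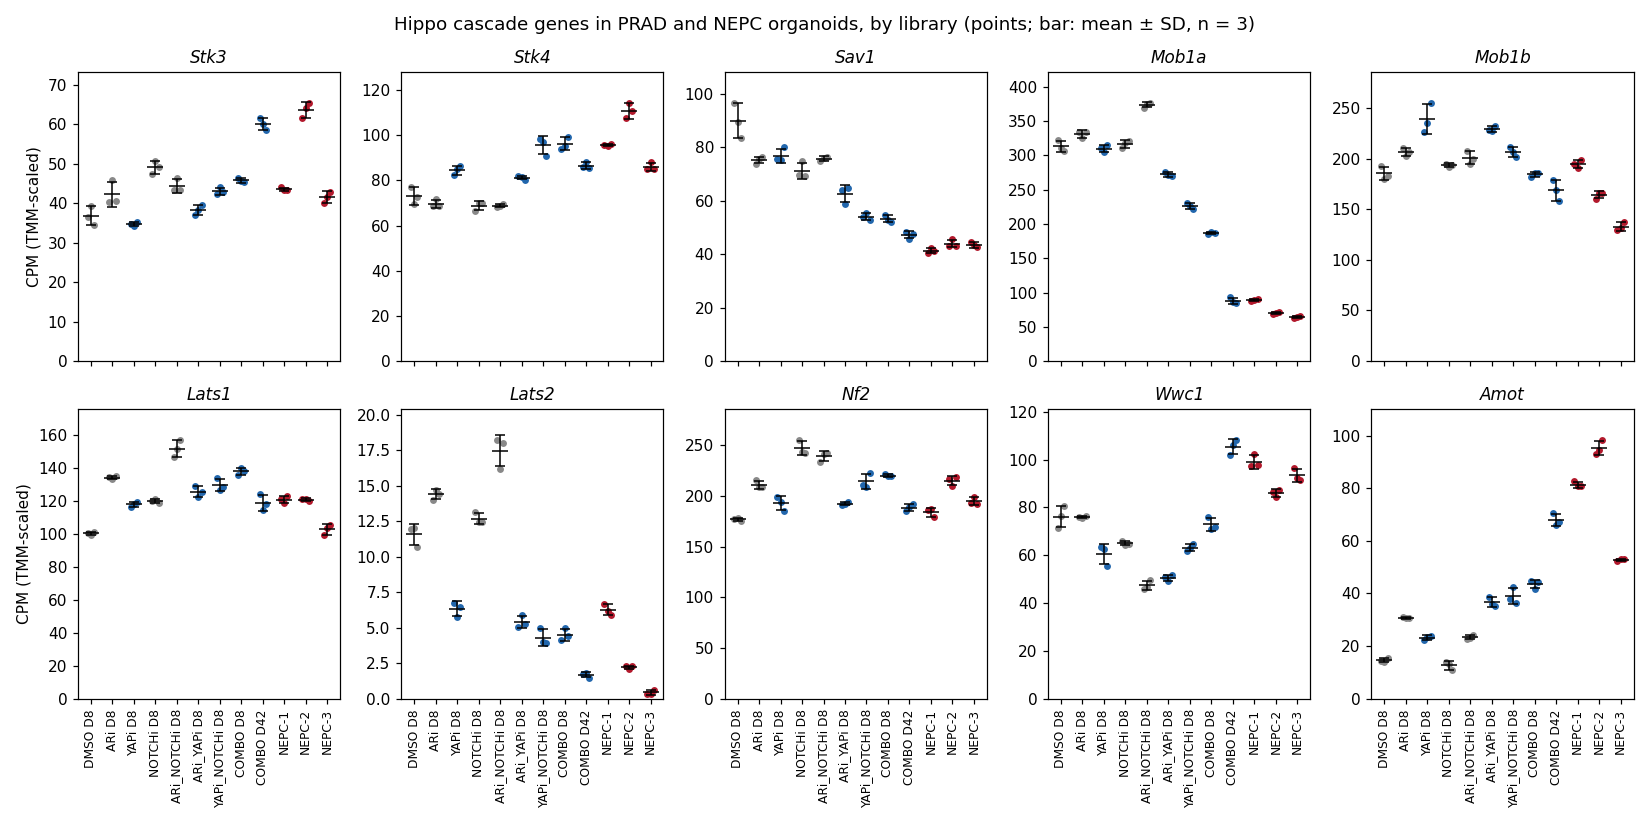
Levels of the 10 Hippo cascade genes (CPM, linear axes from 0) in the 36 PRAD and NEPC libraries, 1 panel per gene, with a point per library and a bar for the group mean ± SD. Grey marks arms without YAPi, blue the arms that contain YAPi and COMBO, and red the NEPC organoids. Lats2, Mob1a and Sav1 are lower in most blue and red groups than with DMSO, Amot is higher, and Lats2 runs from 17.5 CPM with ARi_NOTCHi to 0.429 CPM in NEPC-3.

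In PRAD organoids the question was what each inhibitor code, alone or in pairs, did to the cascade at day 8. Lats2, Mob1a and Sav1 were lower with YAPi_NOTCHi and COMBO, Amot was higher, and the remaining 6 genes moved by at most 0.46 on the log2 scale in those arms. All 7 treated arms were compared with the same 3 DMSO libraries, so their results are not independent. With ARi, 7 of the 10 genes rose and 1 fell at a Benjamini-Hochberg adjusted p under 0.05 in edgeR's quasi-likelihood test, where 54.5% of all genes passed, 27.1% as higher and 27.4% as lower, out of 18483. With YAPi, 5 rose and 3 fell, where 61.9% of all genes passed, 35% as higher and 26.9% as lower. The counts were 3 and 3 with NOTCHi, beside shares of all genes called, higher and lower of 54%, 26% and 28%. They were 7 and 3 with ARi_NOTCHi (68.4%, 35.1% and 33.3%), 5 and 4 with ARi_YAPi (70.2%, 39.7% and 30.5%), 6 and 4 with YAPi_NOTCHi (75.4%, 40.2% and 35.1%), and 5 and 3 with COMBO (79.8%, 41.1% and 38.7%), with the shares in the same order. The 7 of 10 genes that rose with ARi and with ARi_NOTCHi were above the shares of 27.1% and 35.1% higher. With 10 genes, most of the other counts are of the order of the share over all genes. The sizes and directions of single genes carry the description. The median log2 fold change of the members was 0.18 with ARi, 0.06 with YAPi, 0.19 with YAPi_NOTCHi and 0.15 with COMBO, beside medians over all genes of 0.00, 0.06, 0.05 and 0.03.

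Lats2, the downstream kinase gene with the widest range, went down in each arm with YAPi and up with ARi. Its levels with DMSO were 11.95, 12.04 and 10.7 CPM in the 3 libraries, against 6.75, 5.73 and 6.45 CPM with YAPi. With YAPi_NOTCHi they were 4.98, 3.98 and 3.93 CPM, and with COMBO 4.14, 4.94 and 4.39 CPM. None of these treated libraries overlapped the DMSO libraries. The log2 fold change was -0.86 ± 0.10, adjusted p = 4.69e-10 with YAPi (± is the standard error of a log2 fold change throughout, and the SD for levels). It was -1.10 ± 0.10, adjusted p = 1.58e-12 with ARi_YAPi, -1.43 ± 0.11, adjusted p = 1.03e-15 with YAPi_NOTCHi and -1.36 ± 0.10, adjusted p = 1.39e-15 with COMBO. In contrast, the levels were 14.003, 14.7 and 14.4 CPM with ARi and 18.2, 16.2 and 18.02 CPM with ARi_NOTCHi, all above DMSO. Both rises passed the test, with log2 fold changes of 0.31 ± 0.09, adjusted p = 0.00402 and 0.59 ± 0.09, adjusted p = 3.24e-07. NOTCHi alone gave 13.2, 12.5 and 12.4 CPM, a difference that did not pass the test (0.13 ± 0.10, adjusted p = 0.261).

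Its paralog Lats1 went up in all 7 treated arms. Lats1 was at 100.2, 99.3 and 101 CPM with DMSO, 116, 118 and 119 CPM with YAPi and 136, 139.7 and 138 CPM with COMBO. The highest arm was ARi_NOTCHi, at 146, 151 and 157 CPM. Every treated library lay above every DMSO library. The log2 fold changes ran from 0.23 ± 0.03, adjusted p = 3.35e-08 with YAPi to 0.60 ± 0.03, adjusted p = 1.92e-20 with ARi_NOTCHi. Lats1 and Lats2 thus moved in opposite directions in the 4 arms that contain YAPi or are labelled COMBO, and in the same direction with ARi and ARi_NOTCHi.

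Mob1a, which encodes an adaptor that binds and activates the LATS kinases, did not respond to YAPi or NOTCHi singly past the threshold but fell with both. It was at 323, 311 and 306 CPM with DMSO and 311, 305 and 315 CPM with YAPi, which overlap. With NOTCHi it was at 311, 318 and 321 CPM, again overlapping DMSO (with RLE scaling this difference, 0.07, passed with an adjusted p of 0.029). With YAPi_NOTCHi it was at 231, 226 and 222 CPM and with COMBO at 185, 188 and 188 CPM, both far below every DMSO library. The log2 fold changes were -0.47 ± 0.03, adjusted p = 5.87e-19 and -0.75 ± 0.03, adjusted p = 3.52e-26. With ARi_YAPi the fall was smaller (-0.20 ± 0.03, adjusted p = 2.54e-08), and with ARi_NOTCHi Mob1a rose to 369.7, 375 and 377 CPM (0.26 ± 0.03, adjusted p = 6.11e-11). The paralog Mob1b was at 193, 180.2 and 183 CPM with DMSO and 226, 236 and 255 CPM with YAPi, a rise of 0.36 ± 0.04 on the log2 scale (adjusted p = 1.46e-11). With COMBO, Mob1b was at 181, 186 and 186 CPM, which overlaps DMSO (-0.01 ± 0.04, adjusted p = 0.881).

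Sav1, the scaffold that joins the upstream kinases to LATS, was lower than with DMSO in all 7 arms. It was at 96.6, 89.5 and 83.5 CPM with DMSO, 53.97, 55.4 and 52.6 CPM with YAPi_NOTCHi and 54.7, 52.9 and 52.2 CPM with COMBO. The DMSO libraries spread more than those of other groups, yet no treated library reached the lowest of them. Log2 fold changes went from -0.23 ± 0.04, adjusted p = 9.35e-06 with YAPi to -0.76 ± 0.04, adjusted p = 1.29e-19 with COMBO. The upstream kinase genes themselves moved little. Stk4 was at 77.1, 69.5 and 72.7 CPM with DMSO and 94.04, 95.3 and 99.4 CPM with COMBO, a log2 fold change of 0.40 ± 0.04, adjusted p = 6.81e-13. Stk3 was at 36.6, 39.2 and 34.5 CPM with DMSO and 47.4, 50.7 and 49.1 CPM with NOTCHi (0.41 ± 0.05, adjusted p = 1.51e-09), its largest change among the day 8 arms. The call for Stk4 with ARi_NOTCHi, -0.09 ± 0.04, adjusted p = 0.0429, rests on overlapping groups and was lost on leaving out any of 5 single libraries and under other scalings.

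Among the upstream regulators, Amot had the largest response. Amot was at 14.2, 13.9 and 15.4 CPM with DMSO, 31.001, 30.7 and 30.5 CPM with ARi and 22.1, 23.5 and 23.7 CPM with YAPi. It was at 38.6, 36.1 and 35.1 CPM with ARi_YAPi, 37.9, 42.4 and 36.5 CPM with YAPi_NOTCHi and 44.8, 41.7 and 44.2 CPM with COMBO. All of these libraries lay above all DMSO libraries. The log2 fold changes were 1.08 ± 0.06, adjusted p = 1.57e-18 with ARi, 0.66 ± 0.07, adjusted p = 6.35e-12 with YAPi and 1.59 ± 0.06, adjusted p = 7.73e-26 with COMBO, which is 3.00-fold. NOTCHi alone gave 13.8, 13.2 and 10.7 CPM and a log2 fold change of -0.21 ± 0.08, adjusted p = 0.0164, a call that did not hold with RLE scaling (adjusted p = 0.0843), with DESeq2 (0.0850), with the 2 groups fitted alone (0.106), without NOTCHi replicate 3 (0.277) or without DMSO replicate 3 (0.0912). Nf2 was at 177, 178 and 175 CPM with DMSO and 255, 244 and 243 CPM with NOTCHi, where it rose by 0.48 ± 0.03 (adjusted p = 5.84e-18), and it rose in the other 6 arms by 0.12 to 0.44. With YAPi and DMSO fitted alone, the YAPi rise of Nf2 did not pass (adjusted p = 0.0792). Wwc1 was at 71.5, 76.4 and 80.6 CPM with DMSO and 45.9, 46.7 and 49.6 CPM with ARi_NOTCHi (-0.68 ± 0.05, adjusted p = 3.32e-17), and did not pass with ARi (0.995) or COMBO (0.178).

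COMBO and YAPi_NOTCHi at day 8 differed by at most 0.28 on the log2 scale in any of the 10 genes. Of the 10 genes, 3 were higher and 2 lower with COMBO than with YAPi_NOTCHi, where 42.4% of all genes passed, 20.6% as higher and 21.9% as lower. The largest of these was Mob1a, with a log2 difference of -0.28 ± 0.03, adjusted p = 3.7e-11, followed by Wwc1 (0.21 ± 0.04, adjusted p = 0.000112). Mob1b was lower (-0.16), and Amot (0.16) and Lats1 (0.09) were higher. Without YAPi_NOTCHi replicate 3, Amot (adjusted p = 0.0985) and Lats1 (0.0605) did not pass, which left 3 of the 5 calls. For Lats2 the groups overlapped (0.06 ± 0.12, adjusted p = 0.701).

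A test of non-additivity asked whether a pair of inhibitors moved a gene by more or less than the sum of both single effects on the log2 scale. For YAPi with NOTCHi, 9 of the 10 genes departed from the sum (3 above it and 6 below), where 59% of all genes passed, 28.2% as higher and 30.8% as lower. The calls of Sav1 (-0.17, adjusted p = 0.0203) and Lats1 (-0.12, adjusted p = 0.0205) were lost under 5 and 2 of 19 alternatives. Stk3 passed as below with RLE scaling (adjusted p = 0.0129) and DESeq2 (0.0125). Amot lay above the sum by 0.97 ± 0.09, adjusted p = 3.51e-12. Lats2 lay below it (-0.70 ± 0.15, adjusted p = 6.21e-05), as did Mob1a (-0.47 ± 0.04, adjusted p = 6.76e-14). For Mob1a this is the fall seen with the pair and with neither code alone. Nf2 also lay below the sum (-0.33 ± 0.04, adjusted p = 3.4e-09): it rose with NOTCHi alone and by less with the pair. For ARi with YAPi, 7 of the 10 lay below the sum and none above, where 36.6% of all genes passed, 19.2% as higher and 17.4% as lower, with Lats2 at -0.56 ± 0.14, adjusted p = 0.00155 and Amot at -0.41 ± 0.09, adjusted p = 0.000157. For ARi with NOTCHi, 2 lay above and 3 below (shares of all genes 39.3%, 18.7% and 20.6% for called, higher and lower). The split was 1 above and 6 below with RLE scaling and 2 above and 6 below with DESeq2, where Lats1, Mob1b and Amot also passed as below. In the TMM-scaled fit the largest were Wwc1 at -0.45 ± 0.06, adjusted p = 1.45e-07 and Sav1 at 0.35 ± 0.06, adjusted p = 9.17e-06.

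Between day 8 and day 42 of COMBO the same directions went further for Lats2, Mob1a and Amot. Lats2 went from 4.14, 4.94 and 4.39 CPM to 1.75, 1.81 and 1.46 CPM, Mob1a from 185, 188 and 188 CPM to 93.3, 85.9 and 85.03 CPM, and Amot from 44.8, 41.7 and 44.2 CPM to 70.4, 65.97 and 67.03 CPM. No library of one day overlapped the other for these genes. The log2 fold changes were -1.42 ± 0.13, adjusted p = 1.61e-12 for Lats2, -1.08 ± 0.03, adjusted p = 4.23e-31 for Mob1a and 0.64 ± 0.05, adjusted p = 4.25e-15 for Amot. Wwc1, which was no lower than with DMSO at day 8 past the threshold, rose to 102, 106 and 108 CPM (0.53 ± 0.04, adjusted p = 4.33e-15), and Stk3 rose to 61.7, 60.03 and 58.5 CPM (0.39 ± 0.05, adjusted p = 3.11e-10). Lats1, Stk4, Sav1, Mob1b and Nf2 fell, by 0.13 to 0.22 on the log2 scale, and the fall of Mob1b did not pass with RLE scaling (adjusted p = 0.0584). In all, 3 genes rose and 7 fell, where 69.8% of all genes passed, 34.9% as higher and 34.8% as lower. No DMSO group at day 42 is analysed here, so time in culture and length of treatment cannot be told apart.

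The mean of the NEPC organoids differed from COMBO at day 42 by at most 0.31 on the log2 scale in any of the 10 genes, with Lats2 spread widely among the 3 NEPC groups. For Mob1a and Amot too, single NEPC groups lay further from day 42 than their mean did. Standard errors and p-values of this mean cover the spread between libraries and leave out that between the NEPC groups. Against PRAD with DMSO, the mean of the 3 NEPC groups was higher for 6 of the 10 genes and lower for 4, where 85.9% of all genes passed, 42% as higher and 43.8% as lower. The largest differences were in Lats2 (-2.67 ± 0.09, adjusted p = 1.9e-27), Amot (2.36 ± 0.05, adjusted p = 5.81e-35), Mob1a (-2.08 ± 0.02, adjusted p = 2.86e-47) and Sav1 (-1.07 ± 0.03, adjusted p = 8.26e-29). Against COMBO at day 42, 3 genes were higher and 4 lower (shares of all genes called, higher and lower 64.9%, 33.2% and 31.7%), and the largest difference in size was that of Stk3, -0.31 ± 0.04, adjusted p = 9.5e-10. Mob1a was at 88.4, 88.8 and 90.9 CPM in NEPC-1, 69.1, 70.8 and 71.5 CPM in NEPC-2 and 63.1, 63.6 and 65.3 CPM in NEPC-3. The NEPC-1 libraries overlap those of day 42 and the others lie below them. Amot was at 82.5, 80.6 and 80.7 CPM in NEPC-1, 92.9, 94.4 and 98.2 CPM in NEPC-2 and 52.3, 53.1 and 52.9 CPM in NEPC-3, on either side of the day 42 level. The summed neuroendocrine markers were 1500 to 1530, 1910 to 2020 and 1180 to 1230 CPM in the same order, and the endothelial markers read (3 of 5) 287 to 293, 412 to 431 and 270 to 292 CPM. These endothelial sums were nearly all Vwf. In the same order Cdh5 was at 1.64, 0.0108 and 0.336 CPM and Kdr at 1.33, 0.0208 and 0.221 CPM, both lowest in NEPC-2.

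Lats2 ordered the NEPC groups without overlap. It was at 6.67, 6.20 and 5.89 CPM in NEPC-1, from 199, 184 and 181 counts. It was at 2.27, 2.10 and 2.28 CPM in NEPC-2, from 70, 60 and 76 counts, and at 0.333, 0.348 and 0.607 CPM in NEPC-3, from 11, 11 and 21 counts. NEPC-1 thus overlapped PRAD with YAPi, while NEPC-3 lay below all other groups. Set against the mean of the other NEPC groups, the log2 difference was 2.67 ± 0.12, adjusted p = 8.21e-23 for NEPC-1 and -3.09 ± 0.17, adjusted p = 4.5e-20 for NEPC-3. For NEPC-2 it was 0.43 ± 0.14, adjusted p = 0.0104, and the adjusted p became 0.0515 without NEPC-3 replicate 1. The mean of the 3 groups did not differ from COMBO at day 42 past the threshold (0.12 ± 0.14, adjusted p = 0.51), with the 3 groups on both sides of it. NEPC-1 also had more Mob1a (0.41 ± 0.03, adjusted p = 3.28e-17) and Mob1b (0.40 ± 0.03, adjusted p = 1.25e-14) than the others, and NEPC-2 more Stk3 (0.58 ± 0.04, adjusted p = 4.94e-17) and Amot (0.54 ± 0.04, adjusted p = 2.34e-15). Against the other NEPC groups, 6 of the 10 genes were higher and 2 lower in NEPC-1, where 56.6% of all genes passed, 30.9% as higher and 25.7% as lower. In NEPC-2 the counts were 6 and 2 (59.4%, 31.8% and 27.6% of all genes called, higher and lower), and in NEPC-3 they were 0 and 7 (60.4%, 27.2% and 33.2%).

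**Figure D2:**
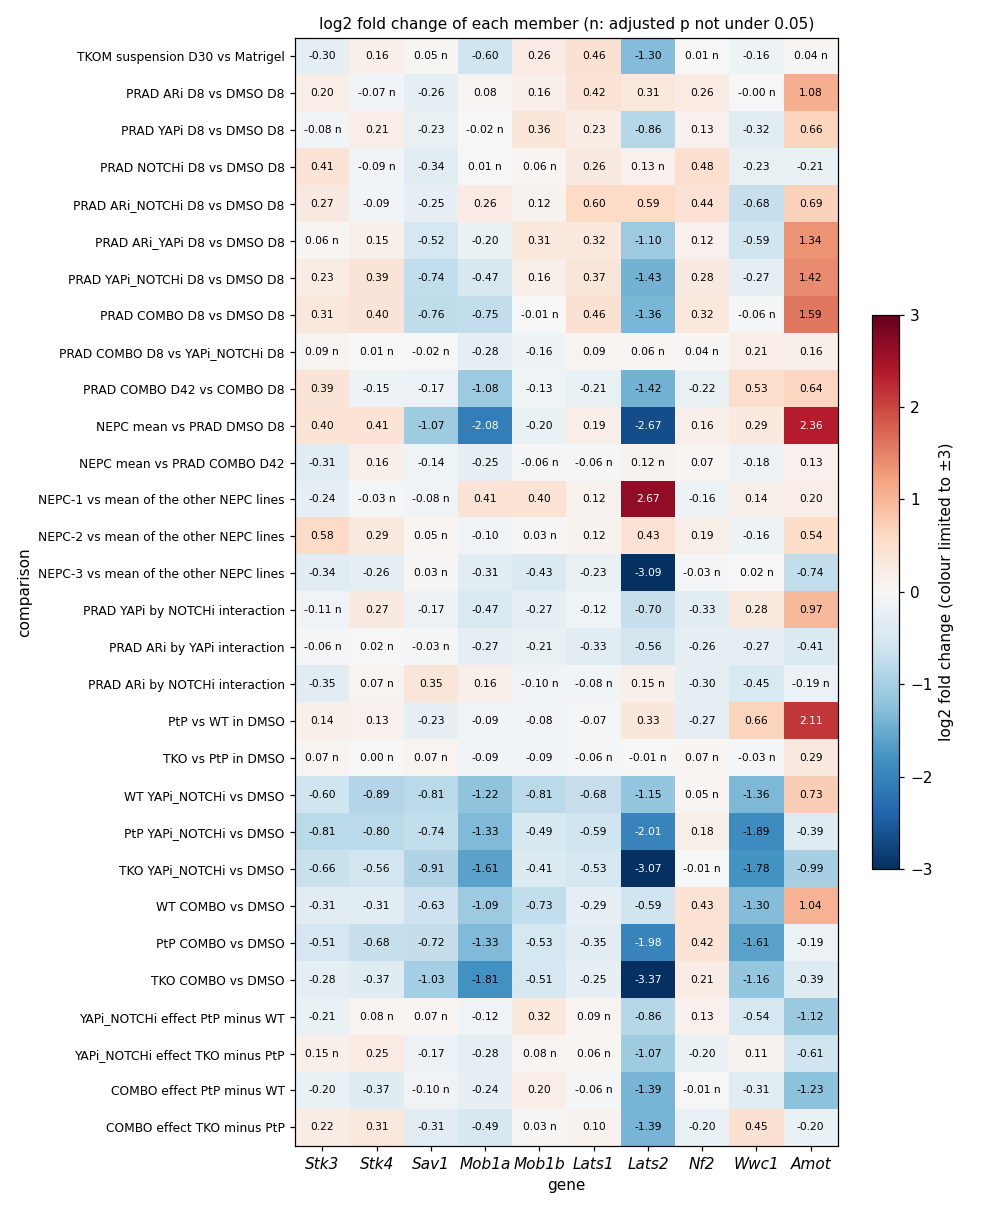
Log2 fold changes of the 10 genes (columns) in all 30 comparisons, differences between effects included (rows), with the value printed in each cell and colours limited to -3 and 3. Red is positive, that is higher in the first-named group, and blue negative, and n marks an adjusted p not under 0.05. Lats2 and Mob1a are blue in most rows with YAPi or COMBO, and Amot is red in most PRAD rows against DMSO but blue in the treated PtP and TKO rows.

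In the genotype table, the organoids with DMSO differed mainly in Amot and Wwc1. Amot was at 8.05, 8.45 and 7.97 CPM in WT, 34.2, 35.96 and 35.9 CPM in PtP and 41.2, 44.7 and 42.9 CPM in TKO organoids. No library of one genotype overlapped another. PtP exceeded WT by 2.11 ± 0.07, adjusted p = 1.3e-26, or 4.32-fold, and TKO exceeded PtP by 0.29 ± 0.05, adjusted p = 2.45e-05. Wwc1 was at 92.5, 93.1 and 90.002 CPM in WT, 143, 147 and 146 CPM in PtP and 140.3, 143 and 144 CPM in TKO. PtP was above WT (0.66 ± 0.03, adjusted p = 2.38e-22), while PtP and TKO overlapped (-0.03 ± 0.03, adjusted p = 0.514). Lats2 was at 18.4, 21.5 and 20.4 CPM in WT and 26.4, 24.8 and 24.5 CPM in PtP (0.33 ± 0.07, adjusted p = 3.85e-05). Between PtP and WT, 5 of the 10 genes were higher and 5 lower, where 60.9% of all genes passed, 30.1% as higher and 30.8% as lower. Of these Lats1 (-0.07) and Mob1b (-0.08) were the smallest, with adjusted p of 0.0385 and 0.0469. With 1 library left out, 8 or 9 of the 10 calls held: Lats1 was lost under 6 of 13 alternatives (-0.02, adjusted p = 0.579 without WT replicate 2), Mob1b under 7 and Stk3 under 3. Between TKO and PtP, 1 was higher and 2 lower, where 26.6% of all genes passed, 13.1% as higher and 13.4% as lower. The call of Mob1b as lower in TKO (-0.09, adjusted p = 0.045) was lost under 5 of 13 alternatives, 4 of them left-out libraries. The summed fibroblast markers, mostly Dcn, were 6.05 to 6.54 CPM in WT, 160 to 162 CPM in PtP and 179 to 188 CPM in TKO with DMSO, and their part in these differences was not tested.

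With YAPi_NOTCHi or COMBO, most of the cascade fell in all 3 genotypes. With YAPi_NOTCHi, 1 gene rose and 8 fell in WT, where 85.7% of all genes passed, 45.5% as higher and 40.2% as lower. The counts were 1 and 9 in PtP (85.5%, 44.9% and 40.6% of all genes called, higher and lower) and 0 and 9 in TKO (86.3%, 45.7% and 40.6%). With COMBO, 2 rose and 8 fell in WT (85.8%, 44.9% and 40.8%), 1 and 9 in PtP (85%, 44.8% and 40.2%), and 1 and 9 in TKO (87.1%, 46.2% and 41%). Both treatments of a genotype share its DMSO libraries. The median log2 fold change of the members was -0.81, -0.77 and -0.79 with YAPi_NOTCHi in WT, PtP and TKO, and -0.45, -0.61 and -0.45 with COMBO. Over all genes, the median in these 6 comparisons was 0.07 to 0.11. The falls included Stk3, Stk4, Lats1 and Mob1b, which in PRAD organoids rose or did not pass with the same codes. The PRAD and genotype tables were fitted separately and this contrast between them was not tested. The summed level of the 7 epithelial markers moved with these falls. With DMSO, YAPi_NOTCHi and COMBO it was 17400 to 17600, 4800 to 4910 and 7000 to 7220 CPM in WT, 10200 to 10400, 4520 to 4590 and 5970 to 6190 CPM in PtP, and 9380 to 9420, 3030 to 3070 and 3690 to 3780 CPM in TKO, and its part in the result was not tested.

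Lats2 fell in all 6, and by more in PtP than in WT and more in TKO than in PtP. With COMBO, Lats2 was at 13.2, 13.9 and 13.03 CPM in WT, 6.15, 6.45 and 6.74 CPM in PtP and 2.43, 2.54 and 2.25 CPM in TKO. None of these groups overlapped. The log2 fold changes against DMSO were -0.59 ± 0.07, adjusted p = 8.93e-10 in WT, -1.98 ± 0.07, adjusted p = 5.89e-26 in PtP and -3.37 ± 0.08, adjusted p = 3.1e-33 in TKO. The COMBO effect itself differed between genotypes, by -1.39 ± 0.11, adjusted p = 3.54e-15 for PtP minus WT and by -1.39 ± 0.12, adjusted p = 1.26e-13 for TKO minus PtP. With YAPi_NOTCHi, the levels were 8.53, 9.53 and 8.87 CPM in WT, 6.04, 6.03 and 6.93 CPM in PtP and 2.58, 2.71 and 3.64 CPM in TKO. The same order held, with differences between effects of -0.86 ± 0.11, adjusted p = 8.74e-09 and -1.07 ± 0.13, adjusted p = 2.61e-09. The summed neuroendocrine markers followed the same order with COMBO, at 255 to 280, 392 to 399 and 1030 to 1100 CPM, and their part in the result was not tested.

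Mob1a showed the same order with smaller differences. It was at 435, 447 and 434 CPM with DMSO and 208, 198 and 212 CPM with COMBO in WT. In PtP it was at 404, 409.8 and 423 CPM with DMSO and 168, 162 and 163 CPM with COMBO. In TKO it was at 387, 383 and 390.1 CPM with DMSO and 109, 108 and 113 CPM with COMBO. No treated library overlapped the DMSO libraries of its genotype. The COMBO log2 fold changes were -1.09 ± 0.03, adjusted p = 4.2e-33, -1.33 ± 0.03, adjusted p = 4.6e-36 and -1.81 ± 0.03, adjusted p = 6.16e-41, and the effect differed by -0.24 ± 0.04, adjusted p = 5.34e-07 for PtP minus WT and -0.49 ± 0.04, adjusted p = 6.82e-15 for TKO minus PtP. Sav1 was at 118, 118 and 117 CPM with DMSO and 75.3, 76.5 and 77.1 CPM with COMBO in WT, and at 106, 106 and 104 CPM and 51.96, 50.5 and 52.2 CPM in TKO. Its fall with COMBO was -0.63 in WT, -0.72 in PtP and -1.03 in TKO, and differed between TKO and PtP by -0.31 ± 0.04, adjusted p = 8.07e-08.

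Amot moved in opposite directions by genotype. In WT it rose from 8.05, 8.45 and 7.97 CPM with DMSO to 15.5, 17.6 and 17.3 CPM with COMBO (1.04 ± 0.08, adjusted p = 4.74e-15). In TKO it fell from 41.2, 44.7 and 42.9 CPM to 32.8, 33.5 and 32.8 CPM with COMBO (-0.39 ± 0.05, adjusted p = 9.77e-10) and to 23.7, 21.8 and 19.5 CPM with YAPi_NOTCHi (-0.99 ± 0.05, adjusted p = 1.87e-20). In PtP it fell as well, to 31.7, 30.6 and 30.7 CPM with COMBO (-0.19 ± 0.05, adjusted p = 0.00139) and 28.3, 26.3 and 26.9 CPM with YAPi_NOTCHi (-0.39 ± 0.05, adjusted p = 2.92e-08). Despite the opposite directions, treated WT libraries stayed below all PtP and TKO libraries. The effect differed between PtP and WT by -1.23 ± 0.10, adjusted p = 2.15e-14 with COMBO and -1.12 ± 0.10, adjusted p = 6.8e-13 with YAPi_NOTCHi. The summed level of the fibroblast markers read (3 of 5, mostly Dcn) moved in the same directions. With DMSO, YAPi_NOTCHi and COMBO the sum was 6.05 to 6.54, 347 to 352 and 183 to 190 CPM in WT, 160 to 162, 53.7 to 57.8 and 50.8 to 55.7 CPM in PtP, and 179 to 188, 40.5 to 42.8 and 20.1 to 23.1 CPM in TKO. Dcn moved with this sum, but Col3a1 and Pdgfra, both at low levels, did not always do so. In PtP with COMBO, Col3a1 rose from a mean of 0.521 to 1.518 CPM and Pdgfra from 0.179 to 0.675 CPM. In TKO, Pdgfra rose from 0.204 CPM to 0.781 CPM with YAPi_NOTCHi and 1.197 CPM with COMBO. Col3a1 fell in TKO with YAPi_NOTCHi, from 0.972 to 0.521 CPM. The part of these markers in the result was not tested.

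Wwc1, which encodes the upstream scaffold KIBRA, fell in all 6 treated groups. With COMBO it was at 36.1, 38.7 and 37.1 CPM in WT, 48.5, 46.9 and 47.2 CPM in PtP and 64.8, 61.7 and 64.4 CPM in TKO. The log2 fold changes were -1.30 ± 0.04, adjusted p = 5.34e-31, -1.61 ± 0.03, adjusted p = 2.37e-36 and -1.16 ± 0.03, adjusted p = 1.39e-32, and the TKO fall was the smaller by 0.45 ± 0.04, adjusted p = 3.88e-12 against PtP. With YAPi_NOTCHi they were -1.36 ± 0.04, -1.89 ± 0.03 and -1.78 ± 0.03. Nf2 rose with COMBO in all 3 genotypes. It was at 119, 124 and 122 CPM with DMSO and 164, 168 and 160.3 CPM with COMBO in WT, where it rose by 0.43 ± 0.03, adjusted p = 3.97e-16, and it rose by 0.42 ± 0.03 in PtP and 0.21 ± 0.03 in TKO. With YAPi_NOTCHi Nf2 rose in PtP (0.18 ± 0.03, adjusted p = 3.48e-06). In WT it did not pass (0.05 ± 0.03, adjusted p = 0.147), but it passed with RLE scaling (adjusted p = 0.0238), DESeq2 (0.0297), the stricter filter (0.000894), the groups compared alone (0.0377) or without WT DMSO replicate 2 (0.044). The difference of that effect was 0.13 ± 0.05, adjusted p = 0.0127 for PtP minus WT, lost without PtP DMSO replicate 1 (0.0812) or PtP YAPi_NOTCHi replicate 3 (0.0575), and -0.20 ± 0.05, adjusted p = 0.000385 for TKO minus PtP.

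The kinases Stk4 and Lats1 fell by less with COMBO than Mob1a and Wwc1 did. Stk4 was at 72.8, 74.2 and 68.8 CPM with DMSO, 37.9, 39.9 and 38.7 CPM with YAPi_NOTCHi and 59.8, 57.3 and 57.3 CPM with COMBO in WT, with log2 fold changes of -0.89 ± 0.04, adjusted p = 4.66e-23 and -0.31 ± 0.04, adjusted p = 1.61e-09. Lats1 was at 161, 176 and 161 CPM with DMSO, 103, 102 and 105 CPM with YAPi_NOTCHi and 136, 133 and 137 CPM with COMBO in WT (-0.68 ± 0.03, adjusted p = 5.93e-24 and -0.29 ± 0.03, adjusted p = 2.95e-12). For both genes the 3 WT groups did not overlap, with YAPi_NOTCHi the lowest. Stk3 changed by -0.60 ± 0.05 with YAPi_NOTCHi and -0.31 ± 0.05 with COMBO in WT, and Mob1b by -0.81 ± 0.04 and -0.73 ± 0.04.

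**Figure D3:**
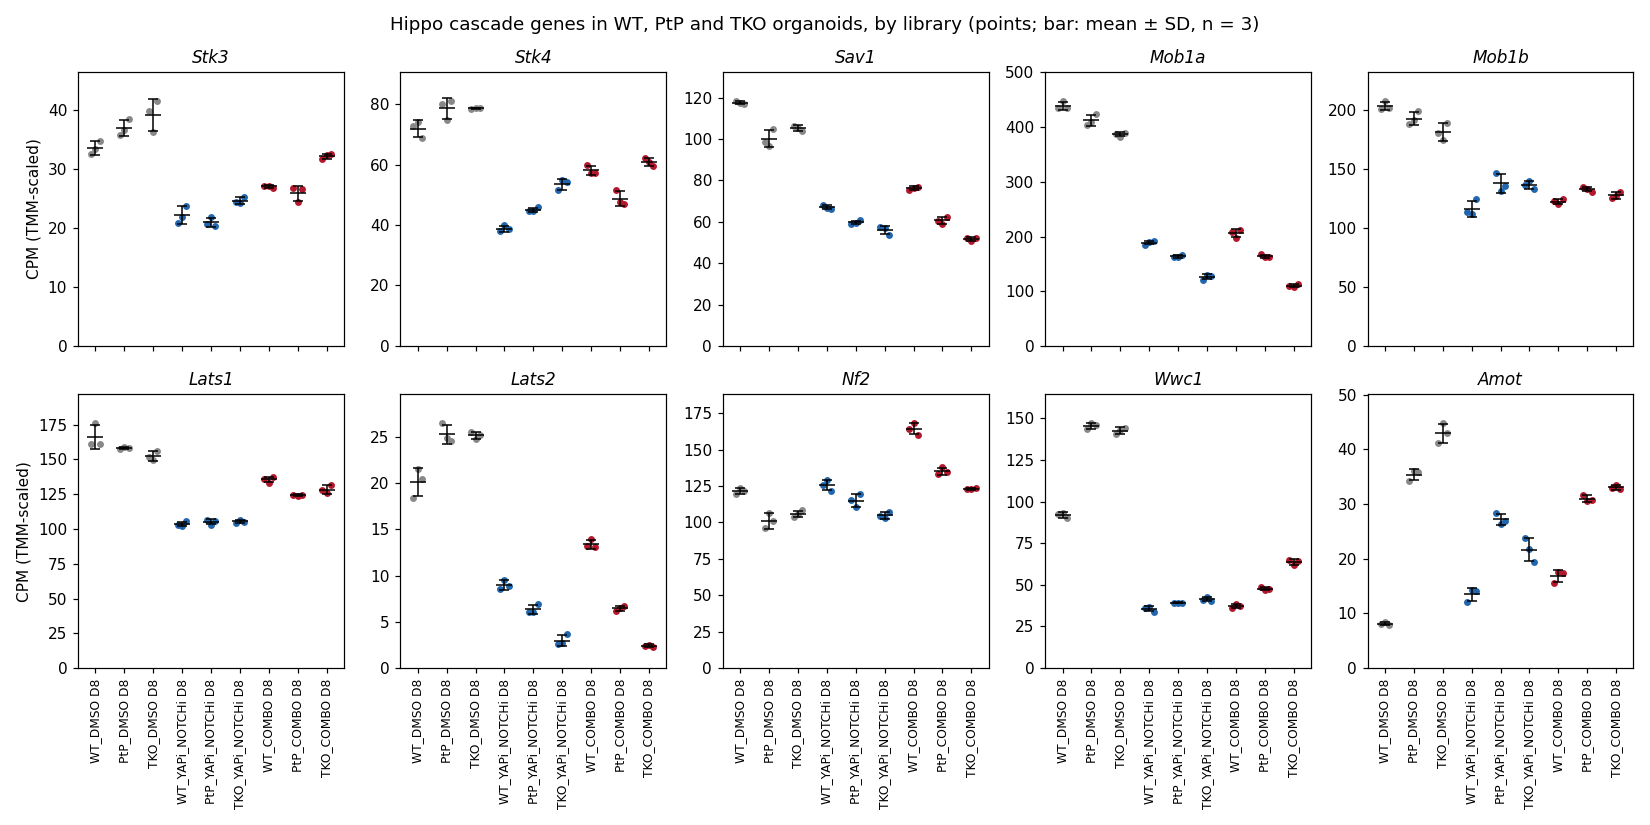
Levels of the 10 genes (CPM, linear axes from 0) in the 27 libraries of the genotype table, 1 panel per gene, with a point per library and a bar for the group mean ± SD. Grey is DMSO, blue YAPi_NOTCHi and red COMBO, for WT, PtP and TKO. Treated Lats2 levels step down from WT to TKO (13.4, 6.45 and 2.41 CPM with COMBO), and Amot rises in treated WT but falls in treated PtP and TKO.

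In TKOM organoids the comparison was of growth in suspension at day 30 with growth in Matrigel. Lats2 and Mob1a were again lower and Lats1 was higher, while Amot did not differ past the threshold. Lats2 was at 8.99, 9.17 and 7.72 CPM in Matrigel and 3.72, 3.27 and 3.49 CPM in suspension, with no overlap (-1.30 ± 0.12, adjusted p = 2.65e-08). Mob1a was at 234, 235 and 235 CPM and 155, 154 and 157 CPM (-0.60 ± 0.03, adjusted p = 1.12e-12). Lats1 was at 100.4, 102 and 98.7 CPM and 137, 131 and 145 CPM (0.46 ± 0.04, adjusted p = 3.05e-09). Each of these 3 genes separated the conditions without overlap. Mob1b was at 123, 119 and 122 CPM and 143, 141 and 150.0 CPM, a rise of 0.26 ± 0.03, and Stk4 rose by 0.16 ± 0.03. Stk3 fell by 0.30 ± 0.05 and Wwc1 by 0.16 ± 0.03 on the log2 scale. Amot was at 25.4, 29.6 and 26.3 CPM in Matrigel and 25.6, 28.8 and 29.2 CPM in suspension, which overlap (0.04 ± 0.07, adjusted p = 0.581). Nf2 (0.01 ± 0.03, adjusted p = 0.694) and Sav1 (0.05 ± 0.04, adjusted p = 0.258) did not pass either. In all 3 rose and 4 fell, where 77.2% of all genes passed, 38.3% as higher and 38.9% as lower, out of 15733. Summed epithelial markers were 4360 to 4590 CPM in Matrigel and 1790 to 1800 CPM in suspension, and the neuroendocrine markers Insm1 and Foxa2, the 2 of the 4 read from this table, were 0.0322 to 0.229 and 30.3 to 32.2 CPM. Most of the epithelial fall was in Krt5 (mean 1449 to 13.7 CPM), Krt14 (584 to 15.5) and Trp63 (97.4 to 0). Cdh1 (1029 to 801 CPM), Epcam (576 to 369), Krt8 (446 to 401) and Krt18 (316 to 194) fell by less. The endothelial markers read (Pecam1 and Vwf, 2 of 5) summed to 1.09 to 1.45 CPM in Matrigel and 37.1 to 39.7 CPM in suspension, and Dcn, the fibroblast marker read (1 of 5), was at 10.4 to 11.8 and 0 to 0.0271 CPM. Their part in these differences was not tested, and condition and day cannot be told apart, since no day is given for Matrigel.

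**Figure D4:**
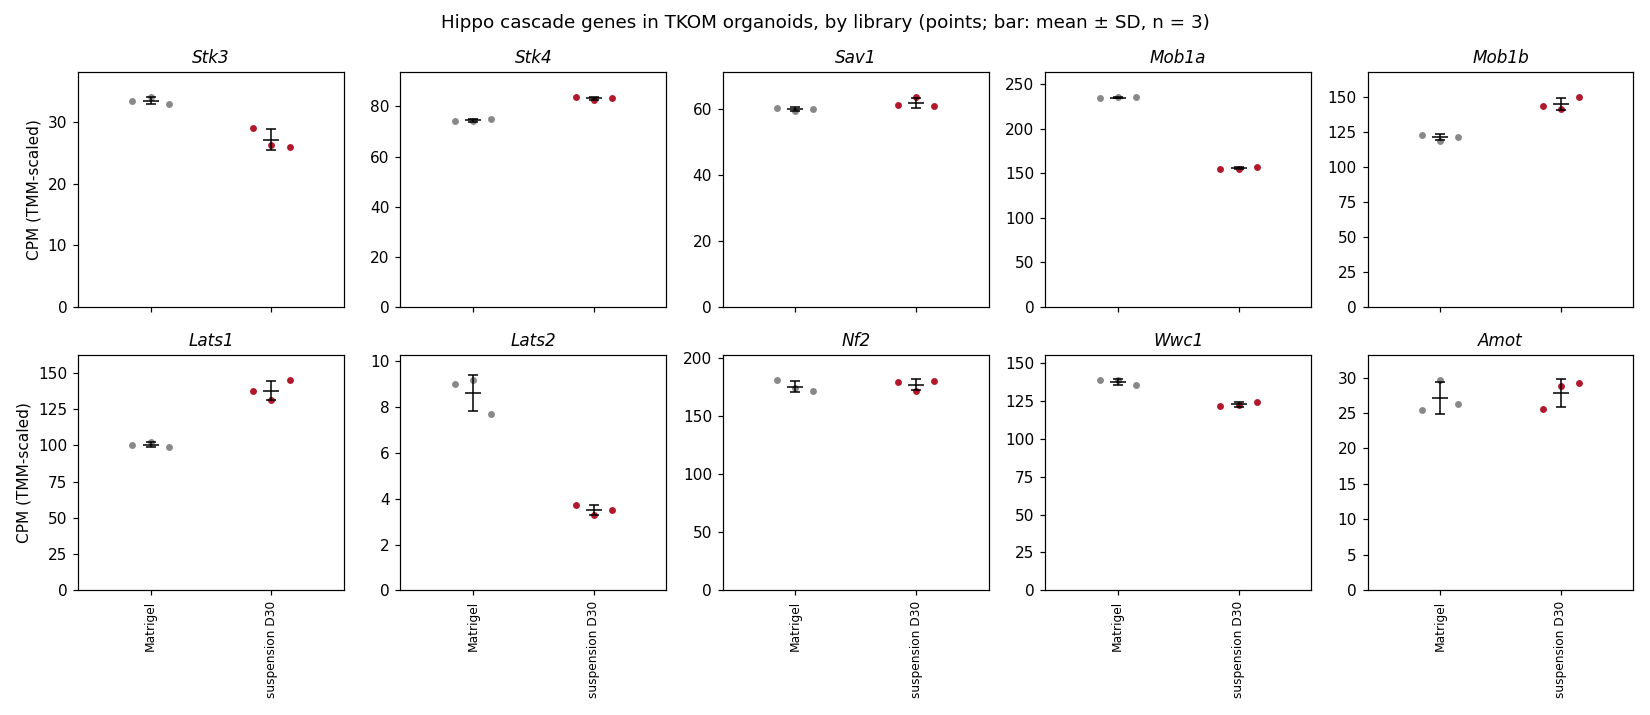
Levels of the 10 genes (CPM, linear axes from 0) in TKOM organoids, 3 libraries in Matrigel (grey) and 3 in suspension at day 30 (red), with a bar for each mean ± SD. Lats2 goes from 8.63 to 3.49 CPM and Mob1a from 234.7 to 155 CPM, and Nf2 and Amot overlap.

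Among the paralog pairs, the count ratio of Lats1 to Lats2 varied most over the groups, and that of Stk3 to Stk4 least. The ratio of Lats1 to Lats2 counts was 8.69 ± 0.656 in PRAD with DMSO, 18.7 ± 1.71 with YAPi, 30.8 ± 2.28 with COMBO at day 8 and 71.6 ± 8.62 at day 42. In NEPC-1, NEPC-2 and NEPC-3 it was 19.3 ± 1.35, 54.6 ± 2.89 and 256 ± 71.8. In TKOM it was 11.7 ± 0.950 in Matrigel and 39.5 ± 2.34 in suspension. In the genotype table both genes fell with treatment, Lats2 by more. With DMSO, YAPi_NOTCHi and COMBO the ratio was 8.27, 11.6 and 10.1 in WT. It was 6.28, 16.7 and 19.3 in PtP, and 6.07, 36.2 and 53.5 in TKO. The ratio was thus higher without Matrigel, with YAPi and with longer COMBO, and widest among the NEPC groups. The ratio of Mob1a to Mob1b was under 1 with COMBO at day 42, in the NEPC groups and in both treated TKO groups, and above 1 in the other groups. It was 1.69 ± 0.0315 with DMSO, 1.01 ± 0.00611 with COMBO at day 8 and 0.522 ± 0.0140 at day 42, and 0.458, 0.429 and 0.483 in the NEPC groups. With DMSO it was 2.15, 2.14 and 2.13 in WT, PtP and TKO, and with COMBO 1.68, 1.23 and 0.863. These ratios are of counts and not per length, so 1 does not mark equal transcript numbers. The ratio of Stk3 to Stk4 stayed between 0.325 and 0.713 over all groups.

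**Figure D5:**
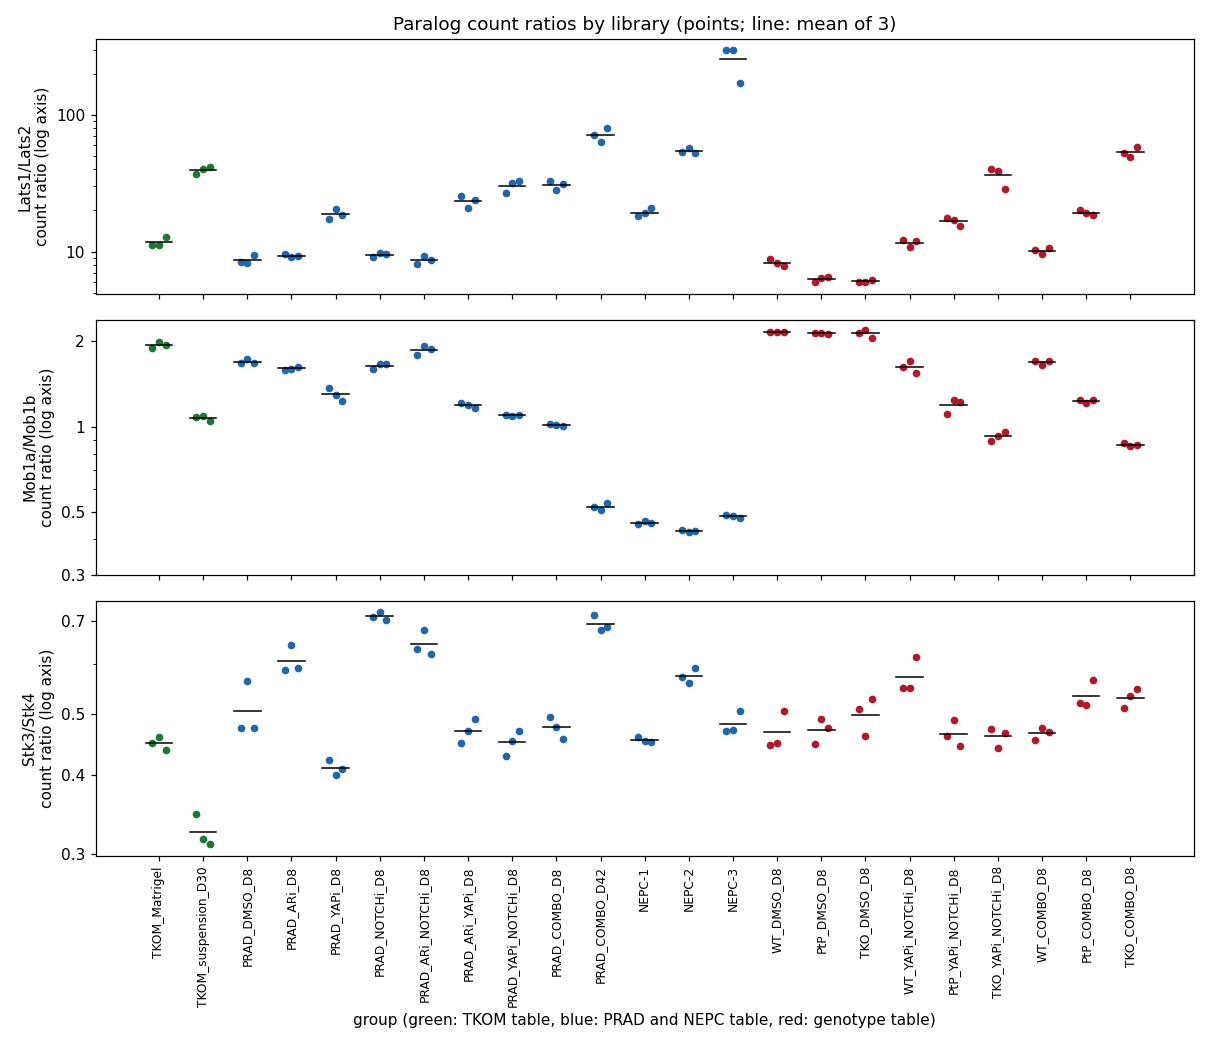
Ratios of paralog levels (counts over counts, log axes) for Lats1/Lats2, Mob1a/Mob1b and Stk3/Stk4, with a point per library, a line at each group mean and the 23 groups along the horizontal axis. Green is TKOM, blue PRAD and NEPC, and red the genotype table. Lats1/Lats2 spans 6.07 in TKO with DMSO to 256 in NEPC-3, while Stk3/Stk4 stays under 1 in every group.

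The genes around the core cascade were read from 5 lists written from general knowledge of the pathway. Their counts stand beside these shares of all genes called, higher and lower. In PRAD the shares were 61.9%, 35% and 26.9% with YAPi and 79.8%, 41.1% and 38.7% with COMBO at day 8. They were 69.8%, 34.9% and 34.8% from day 8 to day 42, and 85.9%, 42% and 43.8% for the NEPC mean. In TKOM suspension they were 77.2%, 38.3% and 38.9%. With COMBO they were 85.8%, 44.9% and 40.8% in WT and 87.1%, 46.2% and 41% in TKO. The effectors (Yap1, Wwtr1, which encodes TAZ, the TEAD genes and the TEAD cofactor Vgll4) held Yap1 and Wwtr1, which were both lower with COMBO, in NEPC and in suspension. With COMBO at day 8, 3 of 7 rose and 4 fell in PRAD, with a median log2 fold change of -0.62. Yap1 went from 260.0 ± 8.89 CPM to 122 ± 4.39 CPM (-1.09 ± 0.04, adjusted p = 1.32e-28) and Wwtr1 from 75.7 ± 1.48 CPM to 30.01 ± 1.63 CPM (-1.33 ± 0.05, adjusted p = 3.43e-25). Tead2 rose there (2.29) and Tead4 fell (-2.57). By day 42, Yap1 was at 0.707 ± 0.122 CPM and Wwtr1 at 0.123 ± 0.0569 CPM, and 0 of the 7 rose and 6 fell against day 8. In NEPC-1, NEPC-2 and NEPC-3, Yap1 was at 0.888, 0.521 and 0.898 CPM, while the lowest Stk4 library of these groups was at 84.8 CPM and the lowest Lats1 library at 99.02 CPM. With YAPi alone at day 8, Yap1 was at 279 ± 2.13 CPM (0.10 ± 0.03, adjusted p = 0.00856) and Wwtr1 at 71.03 ± 2.58 CPM (-0.10 ± 0.05, adjusted p = 0.0968), and 3 of the 7 effectors rose and 2 fell. In TKOM suspension 2 of 7 rose and 5 fell, with Wwtr1 at 1.01 CPM against 51.3 CPM in Matrigel and Yap1 at 182 against 247 CPM. In the genotype table, 2 rose and 5 fell with COMBO in WT, and 1 rose and 6 fell in TKO, with Yap1 at -0.88 and -2.32 on the log2 scale.

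Of the scaffolds and junction proteins, the paralogs of Amot and Wwc1 went the other way from Amot and Wwc1 in the long COMBO arm. At day 42 against day 8, 3 of 14 rose and 10 fell, with a median of -0.60. Amotl1 was at 125 ± 0.207 CPM at day 8 and 4.61 ± 0.461 CPM at day 42, and Wwc2 at 12.2 ± 0.803 CPM and 0.175 ± 0.0985 CPM. Frmd6, whose product is a membrane partner of the upstream cascade, was at 106 ± 0.414 CPM and 10.3 ± 1.27 CPM. All 12 scaffolds tested fell in TKOM suspension, where Ptpn14, a phosphatase gene whose product binds YAP, went from 142 ± 2.63 CPM to 5.68 ± 0.414 CPM. With COMBO at day 8, 6 of 14 rose and 8 fell in PRAD, 5 rose and 8 fell in WT, and 2 rose and 11 fell in TKO. The NEPC mean was higher than PRAD with DMSO for 6 of 14 and lower for 8. With YAPi, 3 rose and 5 fell.

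The kinases that act beside STK3 and STK4 on LATS (the TAOK and MAP4K families, Mink1 and Tnik) and the LATS-related Stk38 and Stk38l mostly rose in PRAD with YAPi or COMBO. Of these, 10 of 12 rose and 1 fell with YAPi (median 0.35), and 8 rose and 3 fell with COMBO at day 8 (median 0.39). Tnik was at 13.5 ± 1.15 CPM with DMSO, 41.4 ± 0.696 CPM with COMBO at day 8 and 92.9 ± 2.11 CPM at day 42. In TKOM it went the other way, from 22.96 ± 0.715 CPM to 0.753 ± 0.173 CPM. Taok2 was at 76.9 ± 2.13 CPM with DMSO and 184 ± 1.54 CPM with COMBO. At day 42 against day 8, 4 rose and 6 fell. Against DMSO, 6 were higher and 4 lower in the NEPC mean, 7 rose and 2 fell with COMBO in WT, and 5 rose and 5 fell in TKO. In TKOM suspension, 3 rose and 7 fell.

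Genes whose products oppose the cascade (the STRIPAK phosphatase complex, which dephosphorylates the STK3 and STK4 kinases, and the LIM proteins Ajuba, Limd1 and Wtip, which bind LATS) gave mixed counts, with Ajuba the largest change. Ajuba was at 221 ± 7.44 CPM in PRAD with DMSO, 95.8 ± 2.62 CPM with COMBO at day 8 and 0.353 ± 0.0587 CPM at day 42. It was at 136 ± 3.18 CPM in TKOM Matrigel and 12.3 ± 1.24 CPM in suspension. Of the 13 genes, 4 rose and 7 fell with COMBO at day 8 in PRAD, 3 rose and 6 fell with YAPi, 7 rose and 4 fell from day 8 to day 42, 6 were higher and 7 lower in the NEPC mean, 5 rose and 6 fell in TKOM suspension, 1 rose and 10 fell with COMBO in WT, and 3 rose and 9 fell in TKO. YAP/TEAD target genes, which share Amotl2 and Ptpn14 with the scaffold list, split evenly with COMBO at day 8 (10 of 20 rose and 10 fell) and were mostly lower at day 42 (4 rose and 15 fell against day 8). Ccn2, a classical target, was at 82.1 ± 2.13 CPM with DMSO, 15.3 ± 0.532 CPM with YAPi and 0.317 ± 0.200 CPM with COMBO. With YAPi, 7 rose and 10 fell. In TKOM suspension 1 of 18 rose and 16 fell, and Axl was at 0.0194 CPM against 73.5 CPM. In the NEPC mean 7 were higher and 13 lower, and with COMBO 7 rose and 12 fell in WT and 3 rose and 16 fell in TKO. The medians over all genes tested in these 7 comparisons were between -0.02 and 0.09.

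Genes whose pattern over the 12 PRAD and NEPC groups was most like that of a member were looked for among 12685 genes, by Pearson's r of the group means of log2(CPM + 1). The groups are related by treatment and come from 1 table, so r is a description only. For Lats2 these were Snx18 (r = 0.982), Rchy1 (0.960) and Poldip3 (0.958). For Amot they were Amigo1 (0.974), Csnk1g3 (0.969) and Kbtbd7 (0.965), for Mob1a Slc25a24 (0.995), Myc (0.995) and Cd151 (0.994), and for Wwc1 Arhgef39 (0.964), Suv39h1 (0.958) and Mxd3 (0.947). Among the members, Sav1 and Mob1a were the most alike of the falling genes (r = 0.917), followed by Lats2 with Mob1a (0.854) and Lats2 with Sav1 (0.790).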

How the data were processed

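The data are bulk polyA RNA sequencing of mouse prostate organoids. The authors deposited 3 tables of estimated counts by gene, and the submitters' processing notes name the build mm10. The aligner, the counting method and the gene annotation used were not given in the sources used here. Of the deposited estimated counts, 46.3%, 40.8% and 41.4% were not whole within 0.01, and all were rounded. Lines without a gene name (at most 0.00371%, 0.00924% and 0.0114% of a library) were left out, lines of one name were summed, and 0 value columns lacked a matched sample. No library was left out.

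Each table was fitted over all its groups with edgeR 4.0.16 (R 4.3.3, limma 3.58.1): filterByExpr with a minimum count of 10, TMM scaling, group means and 2-sided quasi-likelihood F-tests. This kept 15733, 18483 and 18430 genes, with Benjamini-Hochberg adjustment over them and a threshold of 0.05. Levels are CPM with TMM-scaled totals, as mean ± SD over libraries. Libraries held between 31459449 and 40457140 counts (TKOM), 22798865 and 77787405 (PRAD and NEPC), and 18627666 and 92271248 (genotypes). The comparisons are 30 in all, of groups, of the NEPC mean, and of effects. The tests were also run on counts simulated from the kind of model that edgeR fits. Such a run cannot show how well that model describes these data.

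The text names all 10 members, Yap1 and Wwtr1, from each pathway list up to 3 called genes with the largest log2 fold change and an average log2 CPM of at least 1, some of them in another comparison too for continuity, and for the 4 members of widest range the 3 most alike genes without predicted names. Members and lists were chosen with earlier results of these data known, and 1 gene of the neuroendocrine marker list is not reported here and is in none of its sums. Alternatives were DESeq2 1.42.0, RLE scaling, no low-count filter, a stricter one (over 1 CPM in 3 libraries), unrounded counts, only the groups compared, a replicate block, and each library left out in turn. Promoter windows are from RefSeq and gene positions from the mm10 annotation.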

Additional observations from a re-analysis of the deposited data

Results flagged for a closer look

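The effects of YAPi_NOTCHi and of COMBO against DMSO differed between genotypes for many of the 10 genes, by edgeR's test of the difference between effects with an adjusted p under 0.05. In all, 30 such differences passed, of which 9 were positive and 21 negative, and the values below are log2 differences. Of all genes, 57.4% and 52.6% passed for YAPi_NOTCHi (PtP minus WT and TKO minus PtP), and 59.8% and 56.9% for COMBO in the same order.

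For the YAPi_NOTCHi effect, PtP minus WT, Amot differed by -1.12, Lats2 by -0.86, Wwc1 by -0.54, Stk3 by -0.21, Mob1a by -0.12, Mob1b by 0.32 and Nf2 by 0.13. For TKO minus PtP, Lats2 differed by -1.07, Amot by -0.61, Mob1a by -0.28, Nf2 by -0.20, Sav1 by -0.17, Stk4 by 0.25 and Wwc1 by 0.11 (adjusted p = 0.0498).

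For the COMBO effect, PtP minus WT, Lats2 differed by -1.39, Amot by -1.23, Stk4 by -0.37, Wwc1 by -0.31, Mob1a by -0.24, Stk3 by -0.20 and Mob1b by 0.20. For TKO minus PtP, Lats2 differed by -1.39, Mob1a by -0.49, Sav1 by -0.31, Nf2 by -0.20, Amot by -0.20, Wwc1 by 0.45, Stk4 by 0.31, Stk3 by 0.22 and Lats1 by 0.10. Lats2 and Mob1a were negative in all 4 differences, so their falls were larger in PtP than in WT and larger in TKO than in PtP under both treatments. Of the 30 differences, 6 were lost under at least 1 of 19 alternatives each. Wwc1 in YAPi_NOTCHi, TKO minus PtP, was lost under 11, among them no filter (adjusted p = 0.0633), the stricter filter (0.16), unrounded counts (0.0511) and 8 left-out libraries. Stk3, PtP minus WT, was lost under 3 with YAPi_NOTCHi (DESeq2, 0.0593) and under 5 with COMBO (RLE scaling, 0.0589, and DESeq2, 0.0956). Amot in COMBO, TKO minus PtP, was lost under 3 (DESeq2, 0.0831), Lats1 there under 2 and Nf2 in YAPi_NOTCHi, PtP minus WT, under 2, each of the last 4 losses on leaving out 1 library. The 2 differences of a treatment share the PtP libraries, and both treatments share the DMSO libraries.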

How the results depend on the processing

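Of 300 pairs of a gene and a comparison, 243 passed the test, 221 of them under every alternative tried and 224 with every library left out in turn, and 0 changed direction while called. The count of members called moved by over 1.5 times in 2 comparisons. For ARi by NOTCHi it was 5 and became 8 with DESeq2. For COMBO against YAPi_NOTCHi at day 8 it was 5 and ran from 3 to 5 with a library left out, with 3 without YAPi_NOTCHi replicate 3. The cause was not tested. DESeq2 lost 8 calls and added 10, RLE scaling lost 6 and added 10, the groups compared alone lost 7 and added 6 of 290 pairs, and the stricter filter lost 4 and added 5. Among all genes passing ARi by NOTCHi, 47.6% were above the sum of effects, against 35.7% with RLE scaling and 36.3% with DESeq2. RLE scaling moved the median log2 fold change of all genes by at most 0.0841 in size. Of 384 list counts recomputed, 384 stayed within 1.5 times. Of the 22 calls lost under at least 1 alternative, 14 had a log2 change of at most 0.15 in size.

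Same-numbered libraries did not deviate together: the mean correlation of their deviations was -0.0578, -0.00241 and 0.00262 in the 3 tables, and 0 pairs were over 0.1. With the replicate block, 244 pairs passed against 243, and 29 of 30 comparisons kept their member count. The addition was Sav1 in TKO against PtP (adjusted p = 0.0444). Member counts were the same without the deepest library of each large table. Depth limits Lats2 in NEPC-3, which rests on 11 to 21 counts per library.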
